A study of Mus musculus with 6 samples.

Results

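Ms4a4a, Ms4a4c, Ms4a6b, Ms4a6c, Ms4a6d and Ms4a7, genes of the membrane-spanning 4A family, were followed in macrophages (MPs) sorted from regenerating mouse muscle. All 6 listed genes were found by name in the deposited expression table and make up 6 of its 13008 genes. The RNA-seq compared 3 Control and 3 Cripto KO samples of GFP+/F4/80+/Ly6C-low cells, taken on day 5 after cardiotoxin injury of the leg muscles of male C57BL/6J mice aged 3 months. Control mice are described in the methods as Tg:LysMCre::R26mTmG and labeled wild type in the sample records. Cripto KO mice are Tg:LysMCre::R26mTmG::Cripto fl/fl by the methods and Tg:LysMCre::Cripto-/- by the labels. Both groups therefore carried Cre under the LysM promoter, which is active in the myeloid lineage, and the mTmG reporter, which turns on GFP in cells where Cre has recombined. Only the Cripto KO mice carried the floxed alleles of Cripto, a cell surface protein that binds ligands of the TGFβ family. GFP reports recombination of the reporter and not of the Cripto alleles. The paper reports, from genomic PCR at an earlier day, that most but not all Cripto alleles were deleted in GFP+ cells. It also reports less Cripto protein by ELISA in sorted GFP+ MPs of Cripto KO mice on day 5. In the RNA-seq samples the deletion was not checked, since Tdgf1, which encodes Cripto, was not analysed here.

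Ms4a proteins are tetraspan membrane proteins with both ends in the cytosol. The best known members are CD20 on B cells and the beta chain of the high-affinity IgE receptor on mast cells, and several others are expressed in MPs, where they associate with immune receptors in the plasma membrane and tune the signal that the receptor sends. MS4A4A and MS4A7 mark mature tissue MPs, and MS4A4A has been found in complex with the beta-glucan receptor Dectin-1. The human genes of the same cluster lie at a locus associated with Alzheimer's disease and with the level of soluble TREM2.

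The 6 genes lie within 283.8 kb of chromosome 19 (GRCm38), with Ms4a7 at one end and Ms4a6d at the other and with Ms4a4b between Ms4a4c and Ms4a6c. They are paralogs, and the sequences shown here give how far they can be told apart by reads. In coding sequence Ms4a6b was 85.8% identical to Ms4a6c and 81.2% to Ms4a6d over the aligned bases, whereas Ms4a4a and Ms4a4c were 68.2% identical. Ms4a7 was between 62.5% and 63.9% identical to the 3 Ms4a6 genes. The longest run without a difference between members was 81 bases, shared by Ms4a6b and Ms4a6d. It is printed with its surroundings, coding bases 75 to 205 in each gene, with the 5 bases that differ in capitals.
Ms4a6b: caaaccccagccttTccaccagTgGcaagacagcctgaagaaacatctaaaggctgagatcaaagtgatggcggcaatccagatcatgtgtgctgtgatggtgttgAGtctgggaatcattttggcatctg
Ms4a6d: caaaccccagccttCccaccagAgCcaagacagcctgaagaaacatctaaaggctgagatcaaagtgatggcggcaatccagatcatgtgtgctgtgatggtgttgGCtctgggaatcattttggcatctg

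Ms4a6b and Ms4a6c shared 55 bases without a difference, shown within coding bases 364 to 468 of each gene, again with the 5 differing bases in capitals.
Ms4a6b: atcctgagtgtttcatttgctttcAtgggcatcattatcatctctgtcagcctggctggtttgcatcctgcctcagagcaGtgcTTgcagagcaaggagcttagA
Ms4a6c: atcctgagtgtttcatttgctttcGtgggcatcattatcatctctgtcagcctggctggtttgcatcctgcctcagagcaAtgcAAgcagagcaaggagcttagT

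A read that falls wholly inside such a run cannot be assigned to one gene by its letters. Over whole transcripts the shared part was small for most members. Of the words of 31 bases in its transcripts, Ms4a4a shared 0% with any other gene, Ms4a7 1.42%, Ms4a6b 7.90% and Ms4a6d 8.11%. Ms4a4c shared 17.1%, most of it (13.0% of its words) with the T cell gene Ms4a4b, whose coding sequence is 91.7% identical. Ms4a6c shared 58.1%, of which 51.0% of its words were with BE692007, a noncoding transcript annotated on the opposite strand of the same place, and 13.9% with Ms4a6b. The library kit did not mark strand, so reads of Ms4a6c and BE692007 cannot be told apart there, and the values of Ms4a6c are less certain than those of the other members.

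The promoters of Ms4a6b and Ms4a6c, as given by RefSeq on GRCm38.p6, are also related. Entries were matched for 5 of the 6 members, with 2 for Ms4a7. In the 250 bases before the start, Ms4a6b and Ms4a6c had 48 bases in a row in common, and among all 32851 promoters these 2 alone held them. The next longest run, of 24 bases, is shown in capitals in the 128 bases around it, on the plus strand at chr19:11469191-11469318 for Ms4a6c and chr19:11518309-11518436 for Ms4a6b.
Ms4a6c: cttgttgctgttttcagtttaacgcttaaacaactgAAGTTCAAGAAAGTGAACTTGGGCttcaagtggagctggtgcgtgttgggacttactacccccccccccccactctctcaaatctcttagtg
Ms4a6b: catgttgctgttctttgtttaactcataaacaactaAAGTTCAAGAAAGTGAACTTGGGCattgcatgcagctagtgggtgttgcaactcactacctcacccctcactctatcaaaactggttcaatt

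No other pair of members shared more than 9 bases in a row. Motifs were searched on both strands of the same 250 bases. GAAANNGAA, a core of the interferon-stimulated response element, was in 4 of the 6 promoters of members, those of Ms4a6b, Ms4a6c and Ms4a7, and in 7.13% of all promoters. In Ms4a6b and Ms4a6c it lies within the run in capitals. This core was chosen after a longer form, the same letters followed by A, had been found in 0 of the 6 promoters and in 2.98% of all, so the match depends on the form searched. The gamma-activated site core TTCNNNGAA was in 0 of 6 and 7.02% of all, and the PU.1 core GAGGAAGT in 0 of 6 and 2.44% of all.

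Values in the table are normalized signals, in which 0.5 is added to the reads of a gene before scaling to 1000000 reads of a library size adjusted for each sample. That size was not the total of the recovered reads, and its ratio to the total differed between samples. The reads recovered from them totaled 12688968 to 14141773 per Control sample and 14633880 to 15659847 per Cripto KO sample, and each member had between 560 and 15570 reads in every sample. A pair of Control samples stood apart from the rest. Control replicate 1 had Xist at 171, against 0.114 to 0.885 elsewhere, and 4 genes of chromosome Y summed to 0.368 against 130 to 159 elsewhere, although all mice are labeled male. Control replicate 2 had Lyz2, the gene whose promoter drives Cre, at 11066 against 21.2 to 28.3 elsewhere. Results are therefore also given without these samples. Among MP markers, Adgre1 (F4/80) was between 1065 and 1384, Csf1r between 1566 and 1815 and Cd68 between 1420 and 1734, and Ly6c2, which encodes Ly6C, was between 2.44 and 3.42.

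All 6 members had a lower mean in Cripto KO than in Control MPs. By the fitted log2 difference, the value in Cripto KO was lower by 6.08% for Ms4a6d and by up to 27.9% for Ms4a4a. None of them passed an adjusted p-value under 0.05 in limma, the test fitted over all genes, in which 17 genes (0.131%) passed. Ms4a4a, Ms4a4c, Ms4a6b and Ms4a6c, 4 of the 6 members, had an unadjusted p under 0.05 toward Control, which 4.6% of all genes had. The median log2 fold change, given as log2(Control/Cripto KO), was 0.26 over the members and 0.01 over all genes, of which 52.6% were above 0. The members share their libraries and in part their sequence, so they are not independent counts of a direction. In bulk RNA of sorted cells, fewer cells that express a gene and less RNA per cell cannot be told apart.

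**Figure D1:**
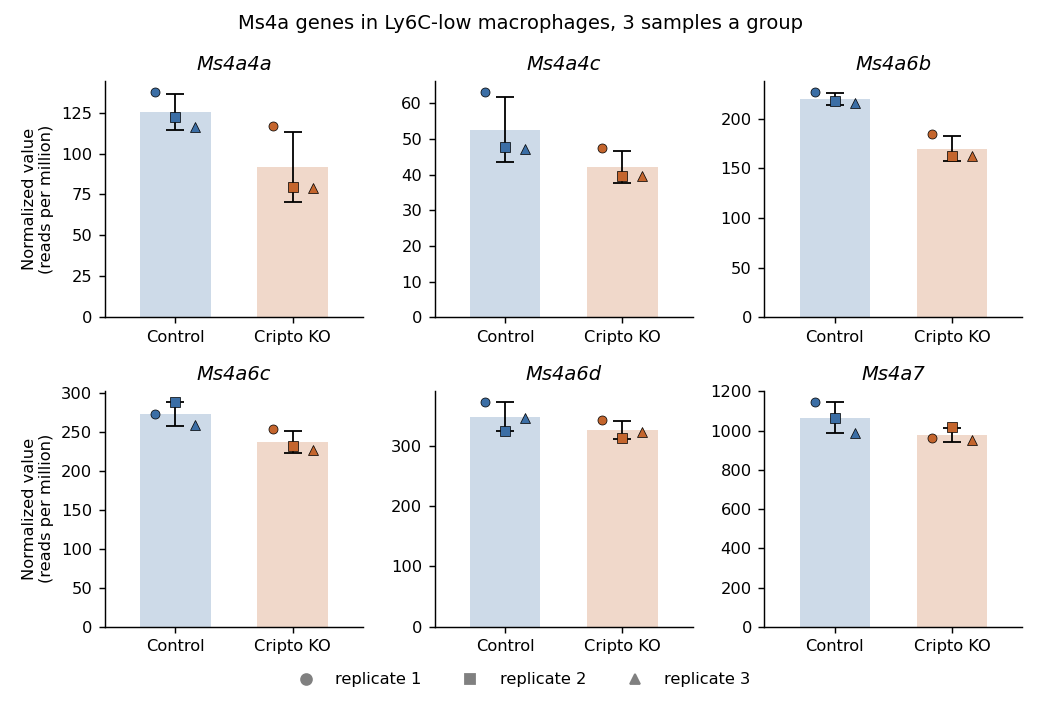
Normalized values (reads per 1000000 of the adjusted library size) of the 6 Ms4a genes in the 3 Control and 3 Cripto KO samples. Bars are means, error bars are SD and markers are samples by replicate number. All 3 Control values lie above all 3 Cripto KO values for Ms4a6b and Ms4a6c, and the groups overlap for the other 4 genes.

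Ms4a4a encodes the member found in complex with Dectin-1 in MPs. Its normalized values were 137, 122 and 116 in Control replicates 1 to 3 and 117, 79.8 and 78.8 in Cripto KO replicates 1 to 3. The values of Cripto KO replicates 2 and 3 lay well below all others, whereas replicate 1 was just above the lowest Control sample, so the groups overlapped. The log2 fold change was 0.47 (SE 0.14, 95% interval 0.15 to 0.80), with an unadjusted limma p of 0.00959 and an adjusted p of 0.448. Over the fits without 1 sample it was between 0.37, without Cripto KO replicate 3, and 0.66, without Cripto KO replicate 1, and the adjusted limma p between 0.0548 and 0.866.

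Ms4a4c belongs to the same subgroup. It was 63.1, 47.6 and 47.2 in Control against 47.5, 39.7 and 39.5 in Cripto KO samples. Control replicate 1 was far above the rest, and Cripto KO replicate 1 was at the level of the remaining Control samples. Its log2 fold change was 0.31 (SE 0.13, 95% interval 0.02 to 0.60), with an unadjusted limma p of 0.0372 and an adjusted p of 0.544. Without Control replicate 1 it was 0.17, with an unadjusted p of 0.122 in limma.

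Ms4a6b encodes a member first studied in T cells and also expressed in MPs. It was 227, 218 and 216 in Control against 185, 162 and 163 in Cripto KO samples, with a gap between the groups. By normalized value, groups without overlap and higher in Control were found for 2 of the 6 members and for 8.02% of all genes. Control exceeded Cripto KO by a log2 fold change of 0.37 (SE 0.07, 95% interval 0.21 to 0.53), with an unadjusted limma p of 0.000501, the 41st smallest of all genes, and an adjusted p of 0.159. Among the tests run it passed the threshold in DESeq2 alone, with an adjusted p of 0.0140 where 0.547% of genes passed, whereas edgeR gave an adjusted p of 0.214 where 0.131% passed. Over the fits without 1 sample the log2 fold change was between 0.34 and 0.44, and the adjusted limma p between 0.0909 and 0.659.

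Ms4a6c is expressed in monocytes and MPs. It was 273, 289 and 259 in Control against 254, 233 and 227 in Cripto KO samples, again without overlap. The gap between Control replicate 3 and Cripto KO replicate 1 was narrow and depended on the scaling. Control replicate 3 had 3169 of 12688968 recovered reads and Cripto KO replicate 1 had 3993 of 15659847, so by this share the latter was higher and the groups overlapped. For this gene the log2 fold change was 0.20 (SE 0.07, 95% interval 0.04 to 0.37), with an unadjusted limma p of 0.0190 and an adjusted p of 0.500. The opposite-strand BE692007, with which Ms4a6c shares reads, was 29.8, 29.1 and 26.8 in Control against 22.9, 21.8 and 24.0 in Cripto KO samples. Its log2 fold change was 0.32 (SE 0.09), with an unadjusted limma p of 0.00592 and an adjusted p of 0.416.

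Ms4a6d, the mouse member described in complex with Vsig4 in MPs, was 372, 325 and 346 in Control against 343, 313 and 323 in Cripto KO samples. The groups overlapped, and the log2 fold change was 0.09 (SE 0.07, 95% interval -0.07 to 0.25), with an adjusted limma p of 0.766. Ms4a7, the member with the highest values, was 1146, 1066 and 988 in Control against 962, 1021 and 952 in Cripto KO samples. Only Control replicates 1 and 2 were above every Cripto KO sample, and the log2 fold change was 0.12 (SE 0.08, 95% interval -0.05 to 0.30), with an adjusted limma p of 0.709. The intervals of these 2 genes leave room for a Control value up to 1.19 times and 1.23 times that of Cripto KO.

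**Figure D2:**
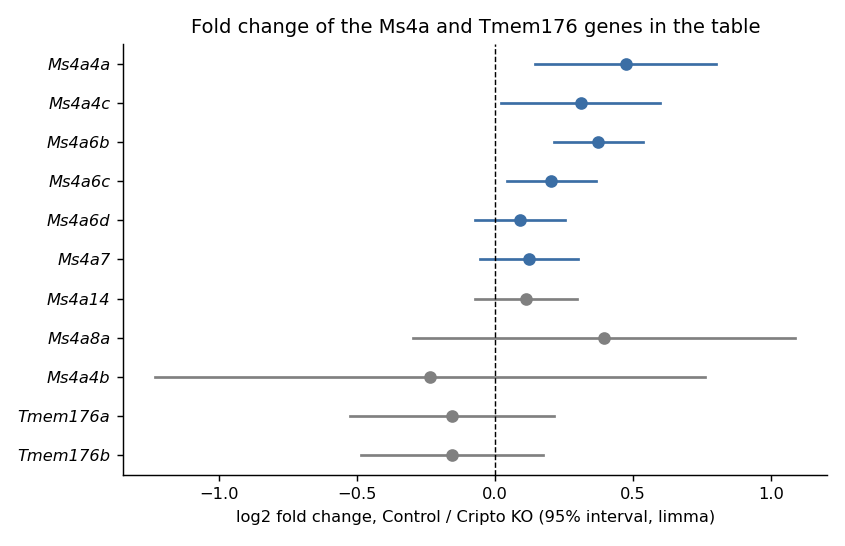
The log2 fold change (Control/Cripto KO) of the 6 Ms4a genes (blue) and of the 5 other Ms4a and Tmem176 genes (grey), with 95% intervals from limma. The intervals of Ms4a4a, Ms4a4c, Ms4a6b and Ms4a6c lie above 0, and the intervals of the other 7 genes include 0.

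The samples kept a similar order from gene to gene. Control replicate 1 held the highest value of all samples for 5 members and Control replicate 2 for Ms4a6c. Cripto KO replicate 3 held the lowest value for 4 members and Cripto KO replicate 2 for the other 2, and Cripto KO replicate 1 was the highest of its group for 5. Summed over the 6 genes, the normalized values were 2220, 2067 and 1972 in Control against 1907, 1848 and 1783 in Cripto KO samples. These normalized sums do not overlap, and Ms4a7 alone supplied between 50.1% and 55.2% of them. As a share of all recovered reads the groups did overlap, with 0.190% in Control replicate 3 and 0.192% in Cripto KO replicate 1. The share of Ms4a6b in the sum was between 10.2% and 10.9% in Control against between 8.79% and 9.69% in Cripto KO samples. The share of Ms4a4a was between 5.89% and 6.19% in Control, 6.11% in Cripto KO replicate 1 and 4.32% and 4.42% in replicates 2 and 3.

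Over the 6 samples, Pearson's r between pairs of members ranged from 0.50, between Ms4a6c and Ms4a6d, to 0.93, between Ms4a4a and Ms4a6b, with a median of 0.77 over 15 pairs. The other pairs above 0.9 were Ms4a4c with Ms4a6d (0.92), Ms4a6b with Ms4a6c (0.92) and Ms4a4a with Ms4a6c (0.90). These values describe 6 libraries that are shared by both genes of a pair and include the difference between the groups. Among 8479 genes with a mean of at least 100 reads, between 55 and 142 genes, or 0.660% to 1.69%, followed each member with r over 0.9. The most similar to Ms4a4a were Lgals3bp and Cep128, to Ms4a4c H2-T23 and Daglb, to Ms4a6b Kxd1 and Nsmce4a, to Ms4a6c Gm2a, to Ms4a6d Cd69 and Wrn, and to Ms4a7 Psmb10 and Pigs. Their r was between 0.98 and 0.99. Each of these genes had a higher mean in Control, which follows largely from choosing them by r over the same samples.

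Leaving out single samples moved the sizes and kept every sign. Without Control replicate 1 the log2 fold changes were 0.40 for Ms4a4a, 0.35 for Ms4a6b and 0.20 for Ms4a6c, and these 3 kept an unadjusted limma p under 0.05 toward Control, as 5.44% of all genes did in that fit. For Ms4a6d and Ms4a7 they were 0.04 and 0.07 in that fit, with unadjusted limma p-values of 0.584 and 0.366. Without Control replicate 2 the log2 fold change of Ms4a6c was 0.16, with an unadjusted p of 0.0679 in limma. With both of these Control samples left out, which rests on a single Control sample assumed to vary like the rest, Ms4a6b alone kept an unadjusted limma p under 0.05 (log2 fold change 0.35, p 0.0121), where 2.58% of genes did.

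**Figure D3:**
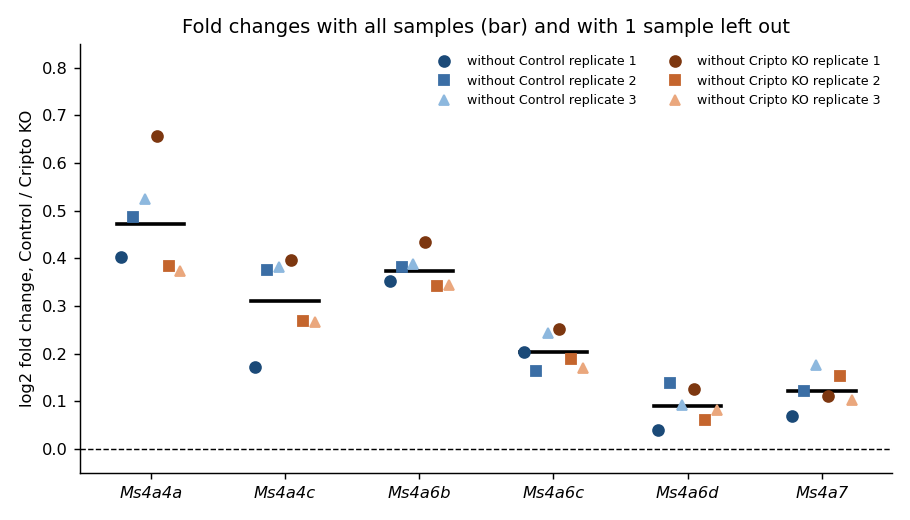
The log2 fold change (Control/Cripto KO) of each Ms4a gene with all 6 samples (black bar) and with each sample left out in turn (markers, by sample). All markers lie above 0, Ms4a4a spans 0.37 to 0.66, Ms4a6b spans 0.34 to 0.44 and Ms4a6d reaches down to 0.04.

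Levels of different genes were compared per kilobase, dividing each value by the length of the union of the gene's exons. Ms4a7 had the highest normalized value per kb, 230 ± 16.5 (mean ± SD, n = 6), followed by Ms4a6d at 194 ± 12.3, Ms4a4a at 130 ± 28.7, Ms4a6c at 125 ± 11.5, Ms4a6b at 43.5 ± 6.42 and Ms4a4c at 27.1 ± 4.91. Ms4a7 was above Ms4a6d in 6 of 6 samples, although their ranges touched. Ms4a4a and Ms4a6c did not differ beyond their spread, and Ms4a4a was the higher of them in 4 samples and the lower in Cripto KO replicates 2 and 3. The other neighbors in this order had ranges that did not overlap. Divided by the longest coding transcript in place of the union, the value of Ms4a7 was 649 ± 46.6 per kb and that of Ms4a6b 72.8 ± 10.7, and Ms4a6c (139 ± 12.8) came before Ms4a4a. Ms4a4c, the lowest by normalized value, had a higher normalized value than 74.7% of all genes, with no gene divided by its length.

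**Figure D4:**
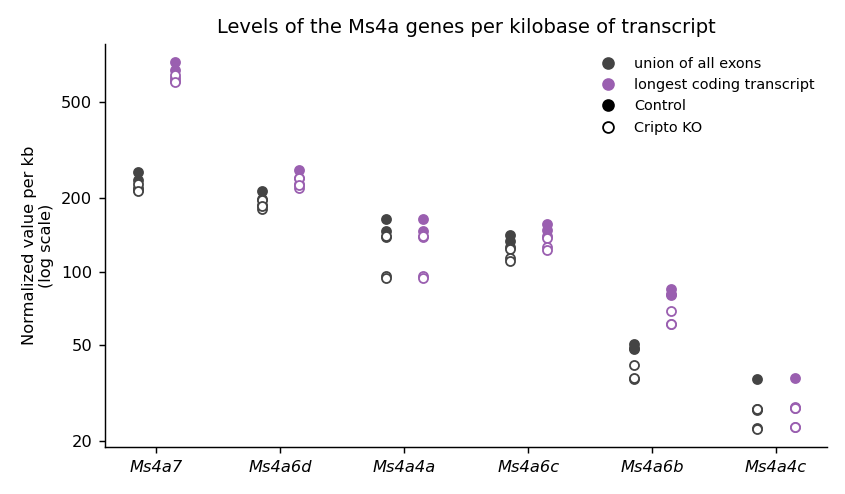
Normalized value per kb (log scale) of the 6 Ms4a genes in each sample, by the union of all exons (grey) and by the longest coding transcript (purple); filled circles are Control and open circles Cripto KO samples. Ms4a7 is highest under both lengths, from 214 to 257 by the union and from 604 to 727 by the longest coding transcript, and Ms4a4c is lowest.

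None of the 5 other Ms4a and Tmem176 genes of the table had an unadjusted p under 0.05 in limma. Ms4a14, the neighbor of Ms4a7, was 65.2, 58.2 and 69.0 in Control against 57.2, 60.8 and 59.6 in Cripto KO samples, with a log2 fold change of 0.11 and an adjusted limma p of 0.741. Ms4a8a was low, and its log2 fold change of 0.39 (SE 0.31) went with a value of 10.9 in Control replicate 1 and of 4.22 to 5.77 in the other 5 samples. The T cell gene Ms4a4b had between 9 and 26 reads, and the related tetraspan genes Tmem176a and Tmem176b both had a log2 fold change of -0.15 (adjusted limma p 0.823 and 0.805), with their highest values, 220 and 443, in Cripto KO replicate 2. The other 12 genes of this list, among them Ms4a1 (CD20) and Ms4a2, were not analysed here.

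Genes around the cluster were compared to see whether the difference extended along the chromosome. Of 26 genes outside the family and within 1 Mb of the members, 3 had an unadjusted limma p under 0.05, where 8.59% of all genes did in either direction, and 0 passed the adjusted threshold. Of the 26, 19 had a log2 fold change above 0, as 52.6% of all genes did, and their median log2 fold change was 0.06. The 3 were BE692007, Sdhaf2 (log2 fold change 0.18) and Tmem138 (-0.59). BE692007 lies inside the cluster and shares reads with Ms4a6c, so it does not count as a neighbor apart from the members. Mpeg1, which encodes a pore-forming protein of MPs, had a log2 fold change of 0.06 (SE 0.11).

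**Figure D5:**
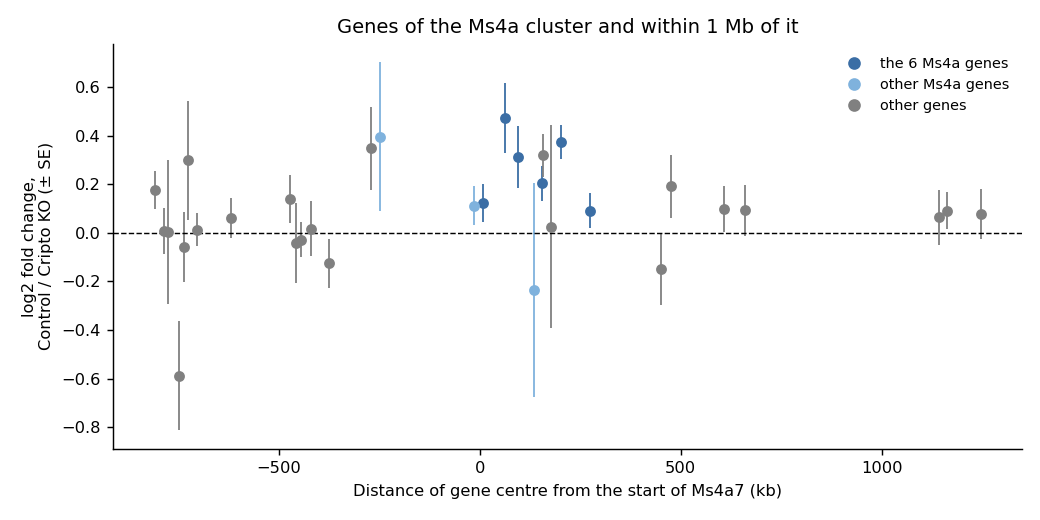
The log2 fold change (Control/Cripto KO, with SE) of the 6 Ms4a genes, 3 other Ms4a genes and 23 other genes within 1 Mb, by distance of the gene's center from the start of Ms4a7 in kb. The 6 Ms4a genes lie between 0.09 and 0.47, the median of all 26 neighbors outside the family, 3 of them too low to plot, is 0.06, and the lowest point is Tmem138 at -0.59.

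Receptors and signaling proteins of MPs, among them known partners of Ms4a proteins, were examined next. Of 20 such genes, 15 had a log2 fold change above 0 (52.6% of all genes), 4 had an unadjusted limma p under 0.05 toward Control (4.6% of all genes) and none toward Cripto KO, and 0 passed the adjusted threshold. The median log2 fold change was 0.09. This list and those that follow were chosen with earlier results of these data known, so their counts are not independent of those results. Clec7a, which encodes Dectin-1, was 396, 513 and 425 in Control against 364, 377 and 358 in Cripto KO samples, with a log2 fold change of 0.27 and an adjusted limma p of 0.500. The IgG receptor gene Fcgr3 was 688, 600 and 597 against 485, 543 and 554 (log2 fold change 0.25), and Nlrp3, the sensor of the inflammasome, was 232, 142 and 151 against 117, 129 and 121 (0.48). Plcg2, a phospholipase downstream of these receptors, was 89.3, 89.2 and 86.5 against 79.5, 80.1 and 79.5 (0.15). The groups did not overlap for these 4 genes, as for 8.02% of all genes higher in Control. Trem2 had a log2 fold change of 0.01 (SE 0.09), and Vsig4 was low, between 2.39 and 5.06. Without Control replicate 1 the median of the 20 genes was 0.02.

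Most interferon-stimulated genes had a higher mean in Control. Of 24 genes, 22 had a log2 fold change above 0, against 52.6% of all genes, 8 had an unadjusted limma p under 0.05 toward Control, against 4.6%, and none toward Cripto KO, and 0 passed the adjusted threshold. The median log2 fold change was 0.20. This list was written with earlier results of these data known and its genes share the same libraries, so the excess over all genes is not independent support. The smallest p-values were those of the antiviral gene Rsad2 (log2 fold change 0.35, adjusted limma p 0.156), the GTPase genes Gbp2 (0.55, adjusted p 0.166) and Gbp3 (0.61, adjusted p 0.348) and the chemokine gene Cxcl9 (0.87, adjusted p 0.285). Rsad2 was 185, 187 and 180 in Control against 153, 136 and 145 in Cripto KO samples. As for most Ms4a genes, Cripto KO replicate 1 was the Cripto KO sample nearest to Control for Rsad2, Gbp2 and Gbp3.

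Genes of resident-type MPs and of monocytes were divided between both directions. Of 18 resident-type genes 8 had a log2 fold change above 0 and the median log2 fold change was -0.00. Among them Lyve1 (-0.34) alone had an unadjusted p under 0.05 in limma. Of 15 monocyte genes 6 were above 0, with a median of -0.09, and the smallest p-values were those of Spn (-0.42), Treml4 (-0.49), Cd177 (0.94) and Ccr2 (-0.30). An unadjusted limma p under 0.05 was reached by 1 toward Control, Cd177, where 4.6% of all genes had one. Toward Cripto KO it was reached by 2, Spn and Treml4, where 3.99% of all genes had one. Of 10 genes of MP identity 8 were above 0 and 0 an unadjusted p under 0.05, with a median of 0.08. None of these lists had a gene past the adjusted threshold.

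Markers of other cells were summed in each sample, and the sums of fibroblast genes did not overlap between the groups. Of 8 neutrophil genes, Ngp and S100a9 had 0 reads in every sample, whereas Csf3r was between 90.998 and 104 and supplied nearly all of their sum. Mmp8 was between 6.52 and 10.1, and S100a8 between 0.694 and 1.55. Hdc of mast cells was between 0.222 and 1.48. Of 8 fibroblast genes all had a higher mean in Cripto KO, 5 with an unadjusted limma p under 0.05, where 3.99% of all genes had one toward Cripto KO, and 4 had groups without overlap, as 6.43% of all genes did in that direction. Their summed values were between 463 and 486 in Control against between 546 and 596 in Cripto KO samples, mostly from Col1a1, Col3a1 and Col1a2, and Pdgfra, which defines these cells, was between 0.405 and 1.21. Of 6 muscle genes 3, Ckm, Myh4 and Tnnt3, had an unadjusted limma p under 0.05 toward Control, where 4.6% of all genes had one, and 1, Myog, toward Cripto KO, where 3.99% had one. The muscle sums overlapped, at 31.01 to 62.6 in Control against 16.4 to 47.3 in Cripto KO samples. The sums of the 2 T and NK cell genes did not overlap (60.4 to 67.7 against 55.8 to 57.0) and were nearly all from Il7r. Those of B cell genes (90.5 to 106 against 87.0 to 94.8), neutrophil genes (107 to 115 against 101 to 111), dendritic cell genes (9.46 to 11.9 against 9.77 to 10.3) and endothelial genes (43.6 to 52.1 against 41.9 to 49.5) overlapped. The part of these cells in the Ms4a values was not tested.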

How the data were processed

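RNA-seq of 6 sorted MP samples was analyzed. The authors trimmed reads with cutadapt 1.7.1, discarded reads under 30 bp, estimated expression with RSEM 1.2.20 against transcripts of GRCm38 release 91 and used limma for normalization. The deposited table gives each gene a normalized signal in every sample, with no value of 0. Dividing out the 0.5 read offset gave whole reads for 100.0% of 78048 values (within 0.01 read). Rows without a symbol held at most 0.482% of reads and stayed in the fit. A gene at 3 reads had a value of 0.222 to 0.286, and limits from reads cover counting error only.

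Groups were compared with limma 3.58.1 (R 4.3.3, lmFit and eBayes with a variance trend, two-sided) on log2 of the deposited values with no pseudocount, over all 13008 genes, with Benjamini-Hochberg adjustment. The scripts were tested on simulated data. The paper gives the RNA-seq as 3 biological replicates and does not say whether each came from a single mouse. The p-values measure the spread between these samples. On the recovered reads, edgeR 4.0.16 (quasi-likelihood) and DESeq2 1.42.0 were run as alternatives. Further alternatives were quantile normalization, median centring, pseudocounts (0.5 or 1), keeping genes of mean value 1 or more, robust eBayes, no variance trend, voom weights, omitting single samples and a replicate block. Leaving out both Control replicates 1 and 2 was chosen after seeing the data.

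Positions, exon lengths and words of 31 bases came from GENCODE mouse release M21 and promoters from RefSeq. The shorter interferon motif was added after the longer one had been searched. Coding sequences were aligned with Biopython 1.88, and figures drawn with matplotlib 3.10.9. Named are the 6 members, the other Ms4a and Tmem176 genes, Clec7a, Trem2 and Vsig4, at most 4 genes of smallest p and defining markers in each other list, the 2 genes most like each member and the neighbors of the cluster, apart from items not reported here. Adgre1, Csf1r, Cd68, Ly6c2, Col1a1, Col3a1, Col1a2 and Mpeg1, where outside that rule, were named after their values were seen. Members and lists were chosen with earlier results of these data known.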

Additional observations from a re-analysis of the deposited data

How the results depend on the processing

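Every member's log2 fold change stayed above 0 in the 11 alternatives that kept all 6 samples, in the 6 fits without 1 sample and without Control replicates 1 and 2. No member passed an adjusted p of 0.05 except Ms4a6b in DESeq2 (log2 fold change 0.36), so the count of members was 1 there and 0 elsewhere. With all samples, Ms4a6b ranged from 0.33 to 0.37 and its adjusted p from 0.0140 to 0.477, and Ms4a4a ranged from 0.42 to 0.47 with an adjusted p from 0.182 to 0.642. Members with an unadjusted p under 0.05 were 4 in limma, 2 under quantile normalization, 2 without the variance trend and between 2 and 4 without 1 sample (2 without Cripto KO replicate 2 or 3). Toward Control, 4.6% of all genes passed that threshold in limma and 5.44% without Control replicate 1. The share of all genes was not taken for quantile normalization, for no variance trend or for the other fits without 1 sample. Over all genes 17 passed the adjusted threshold in limma, 6 under quantile normalization, 5 without the trend, 31 with robust eBayes, 9 with voom weights, 71 in DESeq2, and between 5 (without Cripto KO replicate 2) and 31 (without Control replicate 1) without 1 sample. The causes were not tested. Per kb of the longest coding transcript the level was 72.8 for Ms4a6b, 139 for Ms4a6c, 238 for Ms4a6d and 649 for Ms4a7, because that transcript is shorter than the union of exons.

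Control and Cripto KO samples share replicate numbers, but same-numbered samples did not deviate together (r -0.49, -0.05 and -0.24 over 7730 genes), so the numbers were not taken as pairs. With a replicate block 2 genes and 0 members passed the adjusted threshold, with adjusted limma p-values of 0.331 for Ms4a4a and 0.280 for Ms4a6b. In that fit 4 members kept an unadjusted limma p under 0.05, and the share of all genes at that threshold was not taken. Of 237 medians of the gene lists under alternatives, 21 moved by more than the spread between samples.

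Depth limits Ms4a4b and the markers near 0 reads, whereas each member had at least 560 reads in every sample.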
